A study of Homo sapiens with 6 samples.

Results

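The genes described here are 9 acid-base genes of kidney epithelium, of the 62754 genes in the deposited table: SLC4A8, SLC4A7, SLC4A4, SLC4A2, SLC4A3, SLC4A11, SLC9A3, CA2 and CA12. They were chosen with the contrast below already known, because SLC4A8 was among its largest falls, so their fold changes are given as a description and no p-value is given for any of them. HK-2, a line of human proximal tubule cells, received Cisplatin together with either a negative control siRNA (CP+siNC) or an siRNA against NAT10 (CP+siNAT10), and 3 libraries of each group were sequenced. NAT10 is the acetyltransferase that places N4-acetylcytidine on RNA. Both groups carry the drug, so the contrast is of the siRNA within Cisplatin-treated cells. The libraries held 19321665, 21602988 and 19464027 counts in CP+siNC and 20793709, 21531774 and 25192736 in CP+siNAT10. Nothing in the labels says that the 3 libraries of a group came from separate cultures, so the spread between them may be technical.

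Tubule cells recover bicarbonate from the filtrate by moving acid out of the cell at the apical side and bicarbonate out at the basolateral side. Sodium-proton exchangers of the SLC9 family carry the acid, carbonic anhydrases interconvert carbon dioxide and bicarbonate on both sides of the membrane, and transporters of the SLC4 family carry bicarbonate. Some SLC4 proteins couple bicarbonate to sodium and others exchange it for chloride, and these groups load cells with base or remove it.

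Levels are counts relative to TMM-scaled library size, in units of CPM. NAT10 itself was measured at 75.8, 71.4 and 73.2 CPM in CP+siNC and at 41.3, 40.5 and 42.4 CPM in CP+siNAT10. Its libraries did not overlap, and the CP+siNAT10 mean was 56.4% of the CP+siNC mean. NAT10 had a log2 fold change of -0.82 ± 0.0426 (standard error, SE) (Benjamini-Hochberg adjusted p = 2.79e-15 over the 19874 genes tested, edgeR quasi-likelihood test).

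The labelled cell type was looked at through 16 proximal tubule markers. KRT8 was the most abundant of them, and KRT18, PAX8, GGT1, CDH6 and the glucose transporter SLC5A2 were also present. However, 7 of the 16 did not reach 10 counts in 3 libraries, among them the endocytic receptors LRP2 and CUBN, the phosphate transporter SLC34A1 and the organic anion transporters SLC22A6 and SLC22A8, and SLC22A6 had no count at all. All 9 markers of intercalated cells, the acid-secreting cells of the collecting duct, were low as well, with ATP6V0A4 the highest of them per kilobase in CP+siNC and ATP6V1B1 in CP+siNAT10, at no more than 5 counts in a library each, and their summed level was between 0.212 and 0.467 CPM in the 6 libraries. The members were thus measured in cells in which several defining markers of the labelled cell type are near 0.

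Of the 9 members, 8 had at least 10 counts in 3 libraries and were tested, and CA12 was low. With an adjusted p under 0.05, 2 members were higher in CP+siNAT10 (SLC4A4 and SLC4A3), 5 were lower (SLC4A8, CA2, SLC9A3, SLC4A11 and SLC4A2), and SLC4A7 was not past the limit. Among all genes tested 44.1% passed this limit, 21.8% higher and 22.3% lower. With a log2 fold change over 1 in size as a second limit, SLC4A8 was the only member called, and of all genes tested 2.33% passed, 0.951% higher and 1.38% lower. The groups did not overlap for 7 of the 8 tested members and for 51.4% of all genes tested. Nothing is read from these counts, since the members were selected on this contrast. The median log2 fold change was -0.24 over the 8 tested members and 0.007 over all genes tested. SLC4A8 was the one member whose mean differed by more than 2-fold.

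**Figure D1:**
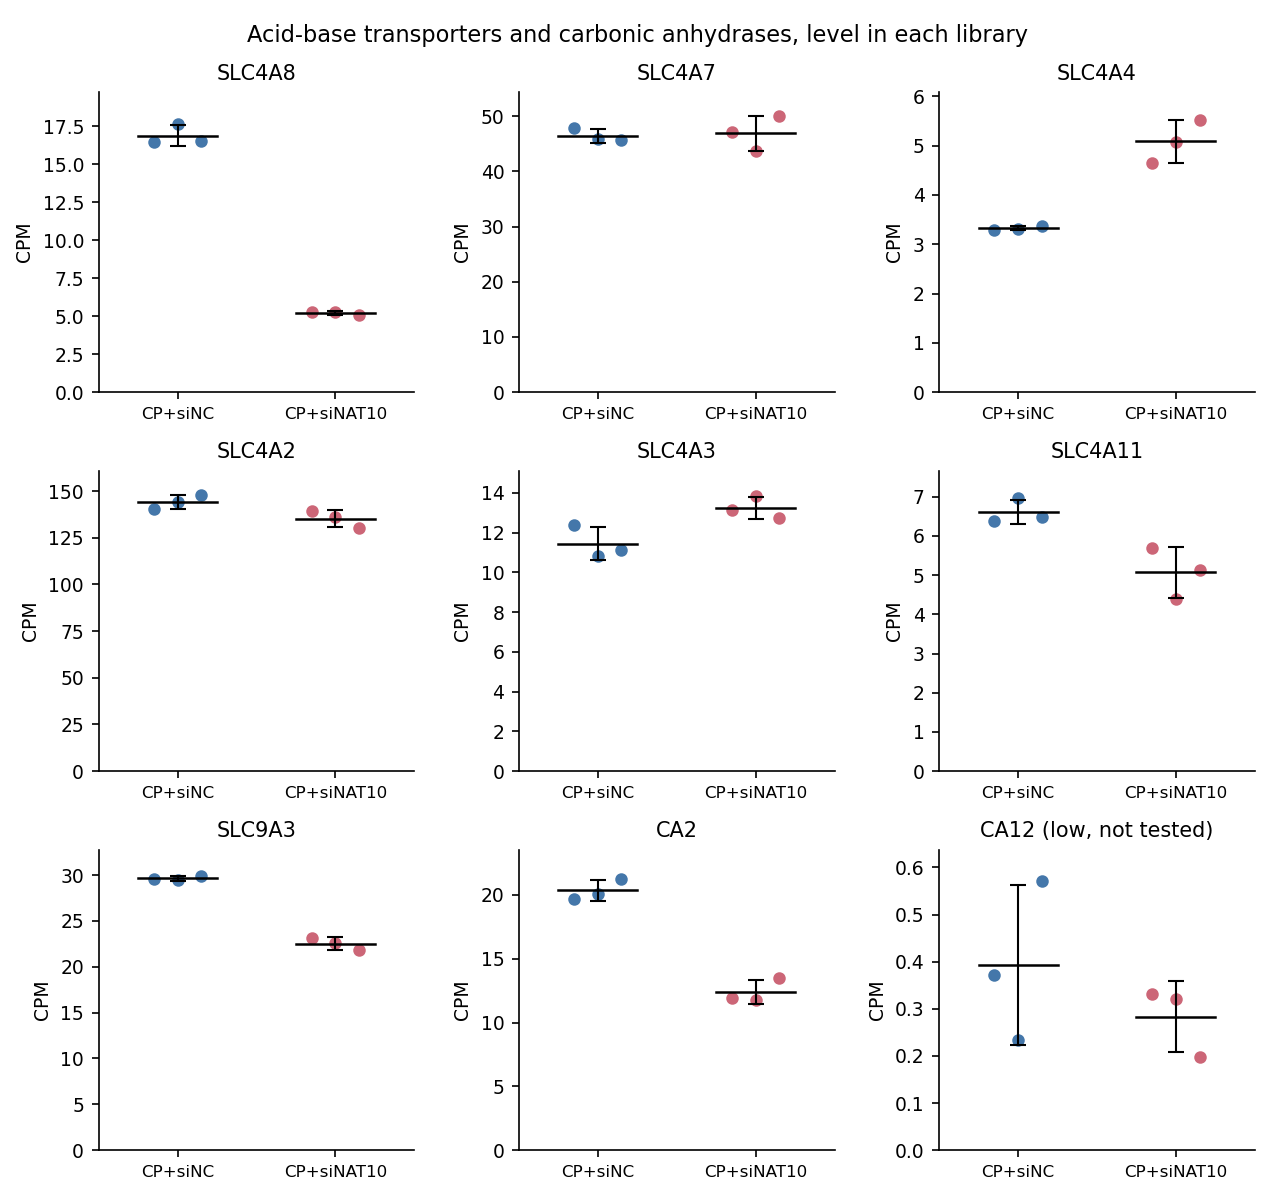
Level of each member in the 3 CP+siNC and 3 CP+siNAT10 libraries, in CPM on an axis starting at 0 and different for each gene; points are libraries, long bars are means and error bars are SD (n = 3). SLC4A8 fell from about 17 to about 5 CPM with tight replicates, while SLC4A7 overlapped between the groups and CA12 stayed under 0.6 CPM.

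The sodium-coupled bicarbonate transporters come first. SLC4A8 (ENSG00000050438), on chromosome 12 from 51391317 to 51509196, encodes an exchanger that brings in sodium and bicarbonate in return for chloride. It was measured at 16.5, 17.7 and 16.5 CPM in CP+siNC and at 5.27, 5.26 and 5.09 CPM in CP+siNAT10. The 3 CP+siNAT10 libraries were all far below the CP+siNC libraries and lay closer to each other than those did. The means were 16.9 ± 0.675 and 5.21 ± 0.103 CPM (SD, n = 3 per group), which puts the CP+siNAT10 level at 30.9% of the CP+siNC level, and the log2 fold change was -1.70 ± 0.0851 (SE). These levels rest on 310, 378 and 318 counts in CP+siNC and on 111, 115 and 129 counts in CP+siNAT10.

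SLC4A7 (ENSG00000033867), on chromosome 3, encodes an electroneutral sodium-bicarbonate cotransporter. Its levels were 47.8, 45.8 and 45.7 CPM in CP+siNC and 47.1, 43.7 and 49.98 CPM in CP+siNAT10. The groups overlapped fully, and the log2 fold change was 0.017 ± 0.0488 (SE). SLC4A4 (ENSG00000080493), on chromosome 4, encodes the electrogenic cotransporter through which proximal tubule cells release bicarbonate towards the blood. It went from 3.29, 3.32 and 3.37 CPM in CP+siNC to 4.65, 5.08 and 5.52 CPM in CP+siNAT10. Every CP+siNAT10 library was above every CP+siNC library, at a low level of 62 to 140 counts per library. The log2 fold change of SLC4A4 was 0.62 ± 0.127 (SE). The 3 closely related genes thus gave a fall, no detectable change and a rise.

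Levels per kilobase of the deposited gene length allow these genes to be set beside each other. On that scale SLC4A8 made up 14.4%, 15.8% and 14.8% of the summed sodium-coupled bicarbonate transporters (SLC4A4, SLC4A5, SLC4A7, SLC4A8 and SLC4A10) in CP+siNC and 4.99%, 5.27% and 4.52% in CP+siNAT10. SLC4A7 supplied most of the sum in both groups, with a share of 76.9 ± 1.16% in CP+siNC and 82.4 ± 0.820% in CP+siNAT10 (SD, n = 3 per group). The share of SLC4A4 went from 5.68 ± 0.124% to 9.22 ± 0.675%. The summed level itself was 6.28 ± 0.0689 CPM per kilobase in CP+siNC and 5.92 ± 0.353 CPM per kilobase in CP+siNAT10, and the libraries of the groups overlapped. On that scale SLC4A8 was a minor transcript of its group in CP+siNC, and the sum over the group moved little. The shares depend on the deposited length, which was 17920 bases for SLC4A8 and 9616 for SLC4A7. Without division by length their CP+siNC means were 16.9 and 46.5 CPM.

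**Figure D2:**
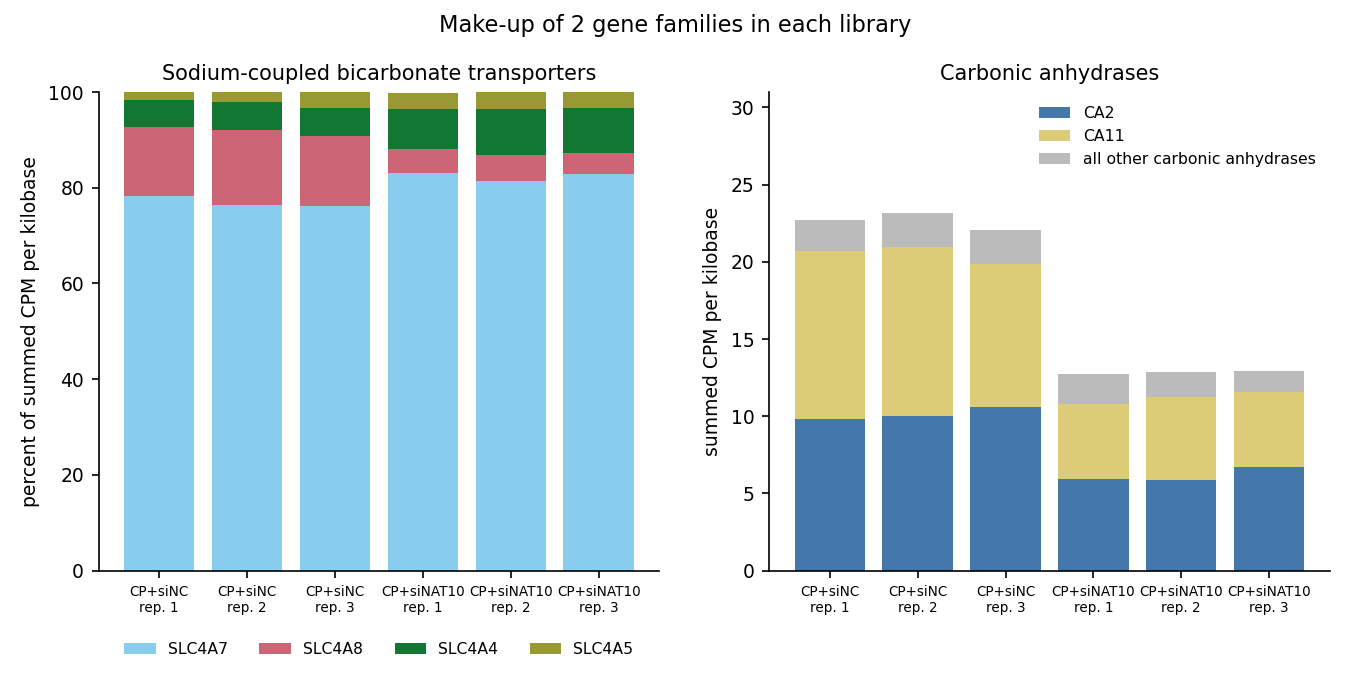
Left, share of each gene in the summed CPM per kilobase of the sodium-coupled bicarbonate transporters, and right, summed CPM per kilobase of the carbonic anhydrases with CA2 and CA11 marked, for each of the 6 libraries. SLC4A8 drops from about 15% to about 5% on the left, and the total on the right drops from 22.6 to 12.8 CPM per kilobase with CA2 and CA11 both smaller.

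The 3 sodium-coupled members share a short sequence in their longest annotated 3′ UTR in GENCODE 29, the heptamer CATATTC, which was chosen for display because an earlier search of these same libraries named it among heptamers carried by genes that fell. The sites are shown 5′ to 3′ on the transcript strand with the heptamer in capitals. They lie at chr12:51508987-51509011 on the plus strand for SLC4A8, chr3:27374301-27374325 on the minus strand for SLC4A7 and chr4:71571726-71571750 on the plus strand for SLC4A4 (GRCh38).
SLC4A8: catttatttCATATTCcctatctca
SLC4A7: aaacctgtaCATATTCcatttacaa
SLC4A4: tggctggtaCATATTCgtacgcatt
The site of SLC4A4 lies beyond the end of the gene in the deposited positions, at 71568595. That of SLC4A8 lies inside, at base 1558 of a 3′ UTR of 8325 bases. Most of that 3′ UTR runs past the deposited end of SLC4A8, at 51509196, and the shares below use the annotated lengths. Of all tested genes with a 3′ UTR, 10.6% hold this heptamer, and the share rises with length. Among tested genes whose 3′ UTR is between 1/2 and 2 times as long as that of SLC4A8 it was 35.7%, and it was 21.2% for the length of SLC4A7 and 22.7% for that of SLC4A4. The same heptamer therefore stands in a gene that fell, a gene that overlapped between groups and a gene that rose. Its part in any of these levels was not tested. CA12 holds it too, and the 3′ UTRs of SLC4A2, SLC4A3, SLC4A11, SLC9A3, CA2 and NAT10 do not.

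The chloride-bicarbonate exchangers SLC4A2 and SLC4A3 remove base from the cell. SLC4A2 (ENSG00000164889), on chromosome 7, was the most abundant member, at 141, 144 and 148 CPM in CP+siNC and 139, 136 and 130 CPM in CP+siNAT10. The groups did not overlap, but the gap between them was small, and the log2 fold change was -0.095 ± 0.0356 (SE). SLC4A3 (ENSG00000114923), on chromosome 2, was at 12.4, 10.8 and 11.1 CPM in CP+siNC and at 13.1, 13.8 and 12.7 CPM in CP+siNAT10, and its log2 fold change was 0.21 ± 0.0783 (SE). Its groups were separated by less than the range within CP+siNC. Neither call was firm: SLC4A2 was not past the adjusted p limit with library size scaling only (-0.057) or without a filter on low counts (-0.083). Neither gene was past it with DESeq2 (-0.097 for SLC4A2 and 0.21 for SLC4A3), nor when CP+siNC replicate 2 (-0.099 and 0.16), CP+siNC replicate 3 (-0.080 and 0.19) or CP+siNAT10 replicate 2 (-0.097 and 0.18) was left out. SLC4A2 was also lost without CP+siNAT10 replicate 3 (-0.068), and SLC4A3 without CP+siNAT10 replicate 1 (0.22).

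SLC4A11 (ENSG00000088836), on chromosome 20, belongs to the family by sequence but carries protons or ammonia and no bicarbonate. It was measured at 6.37, 6.96 and 6.49 CPM in CP+siNC and at 5.70, 4.39 and 5.13 CPM in CP+siNAT10. The CP+siNAT10 libraries were all lower and more scattered, and the log2 fold change was -0.38 ± 0.113 (SE). Without CP+siNAT10 replicate 2, the lowest library, the value was -0.29 and no longer past the adjusted p limit.

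SLC9A3 (ENSG00000066230), on chromosome 5 from 470456 to 524322, encodes the apical sodium-proton exchanger NHE3. Its levels were 29.5, 29.5 and 29.9 CPM in CP+siNC and 23.2, 22.6 and 21.8 CPM in CP+siNAT10. The groups were well apart and tight, with a log2 fold change of -0.40 ± 0.0532 (SE). An antisense gene, SLC9A3-AS1, lies inside the span of SLC9A3 on the other strand, and 830 of the 5635 exonic bases of SLC9A3 in GENCODE 29 are shared with it. SLC9A3-AS1 was at 42.9 ± 2.73 CPM in CP+siNC and 26.8 ± 0.754 CPM in CP+siNAT10 (SD over 3 libraries). Its log2 fold change was -0.68 ± 0.0527 (SE) (Benjamini-Hochberg adjusted p = 1.74e-11, edgeR quasi-likelihood test), and all 3 CP+siNAT10 libraries were below all 3 CP+siNC libraries. Whether the counting used strand is not given in the sources used here, although the libraries were stranded. The counts bear on it. Of 272 pairs in which all exonic bases of a tested gene lie in exons of a longer gene on the opposite strand, the enclosing gene had at least as many counts in all 6 libraries in 98.5%, close to the 98.8% of 243 such pairs on the same strand. Over these pairs the counts per base of the inner and the enclosing gene had a Spearman correlation of 0.57 on opposite strands and 0.507 on the same strand. Where the inner gene lay in the span without a shared exonic base, the values were 68.5% of 758 pairs and a correlation of -0.012 on opposite strands, and 77.7% of 659 pairs and 0.201 on the same strand. These values compare levels between pairs and not changes between libraries. From these counts it is not known how reads were assigned where SLC9A3 and its antisense partner overlap. The part of such reads in either level was not tested. The same holds for the other genes below that share exonic bases with a member.

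Other genes that overlap SLC9A3 gave no call. EXOC3, which shares 839 exonic bases with SLC9A3 on the opposite strand, was at 67.0 ± 2.02 and 69.9 ± 3.14 CPM, and PP7080, which shares 2363 exonic bases with SLC9A3 on the same strand, was at 11.5 ± 0.748 and 10.8 ± 0.616 CPM (SD, n = 3 per group, CP+siNC first). Neither was past the adjusted p limit. The 5′ end of SLC4A8 overlaps GALNT6, a glycosyltransferase gene on the opposite strand, by 392 exonic bases. GALNT6 was at 5.66 ± 0.158 CPM in CP+siNC and 5.12 ± 0.760 CPM in CP+siNAT10, with overlapping groups, and was not past the limit. SLC4A8-AS1 had no count in any library. The genes overlapping SLC4A2 are CDK5 and ENSG00000244151, which share 331 and 714 exonic bases with it on the opposite strand, and ENSG00000288608, and they were not past the limit, except CDK5 without CP+siNC replicate 3 (-0.22) and ENSG00000288608 without CP+siNC replicate 1 (-0.25). Of the other overlapping genes, RPS20P15 had no count and LDHAL6EP, CA3-AS1, ENSG00000287348, ENSG00000249170 and ENSG00000250385 had at most 13 counts in a library.

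**Figure D3:**
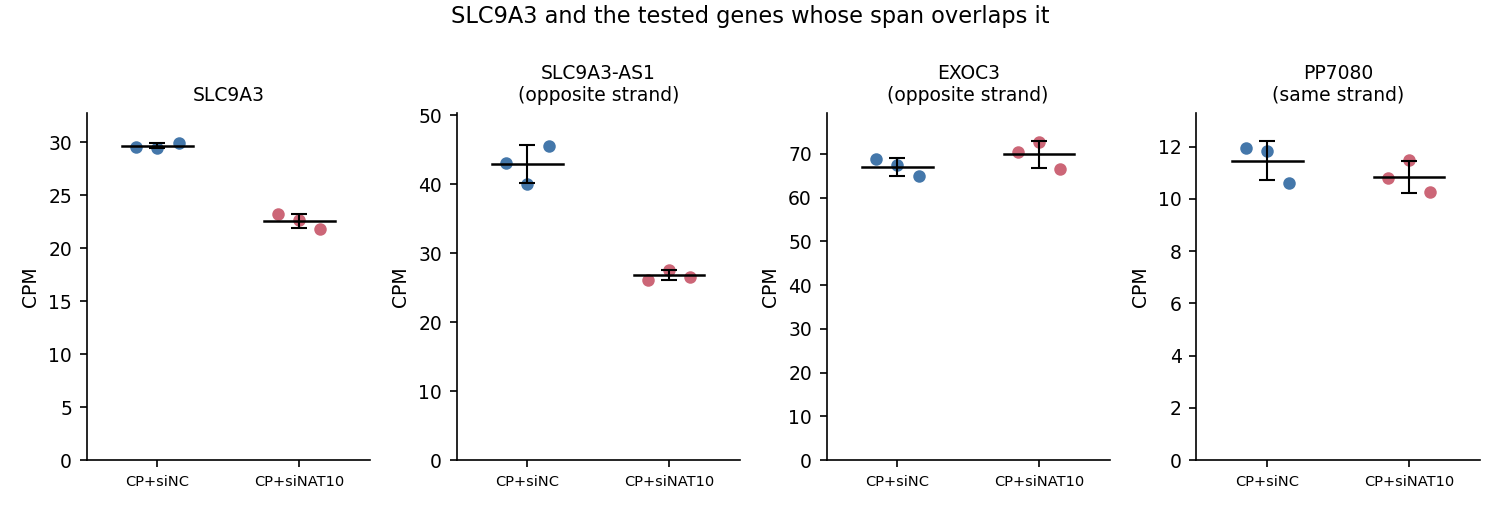
SLC9A3 and the 3 tested genes whose span overlaps it, in CPM on axes starting at 0; points are libraries, long bars means and error bars SD (n = 3). SLC9A3 and SLC9A3-AS1 are lower in every CP+siNAT10 library, while EXOC3 and PP7080 overlap between the groups.

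CA2 (ENSG00000104267), on chromosome 8 from 85463968 to 85480886, is the cytosolic carbonic anhydrase of proximal tubule cells. It was measured at 19.7, 20.1 and 21.3 CPM in CP+siNC and at 11.9, 11.8 and 13.5 CPM in CP+siNAT10. Every CP+siNAT10 library was below every CP+siNC library, and the CP+siNAT10 mean was 60.9% of the CP+siNC mean. The log2 fold change of CA2 was -0.71 ± 0.0703 (SE). CA12 (ENSG00000074410), on chromosome 15, encodes a membrane enzyme that faces the outside of the cell. It had 7, 5 and 11 counts in CP+siNC and 7, 7 and 5 in CP+siNAT10, which is too few for a comparison.

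Per kilobase of gene length, the order of the members in CP+siNC was SLC4A2 at 19.1, CA2 at 10.1, SLC9A3 at 5.15, SLC4A7 at 4.83, SLC4A3 at 2.31, SLC4A11 at 1.53, SLC4A8 at 0.942, SLC4A4 at 0.357 and CA12 at 0.056 CPM per kilobase. No neighbours in this order overlapped in their 3 libraries, although SLC9A3 and SLC4A7 lay close together. In CP+siNAT10 the order differed at 2 places. SLC4A7 at 4.88 stood above SLC9A3 at 3.92 CPM per kilobase, and SLC4A4 at 0.545 stood above SLC4A8 at 0.291 CPM per kilobase.

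The other acid-base genes were taken from lists of related transporters, enzymes and regulators. The table held 114 such genes. Of these, 73 were tested, and 14 were higher, 28 were lower and 31 were not past the adjusted p limit. Past both limits 1 was higher and 3 were lower. Their median log2 fold change was -0.11, and their groups did not overlap for 45. Among all genes tested 44.1% were past the adjusted p limit, 21.8% higher and 22.3% lower. Past both limits 0.951% were higher and 1.38% lower, and the groups did not overlap for 51.4%. These shares stand beside the counts of each list and marker set below, and nothing is read from counts of lists so short.

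Of the other carbonic anhydrases 4 of 13 were tested, 2 were lower past both limits and 2 were not past the adjusted p limit. CA11, a carbonic anhydrase relative without catalytic activity, fell from a mean of 20.2 ± 1.83 CPM to one of 9.78 ± 0.521 CPM (SD, n = 3 each). Its log2 fold change was -1.05 ± 0.0777 (SE) (Benjamini-Hochberg adjusted p = 6.42e-12, edgeR quasi-likelihood test), and its groups did not overlap. CA5B, a mitochondrial enzyme, fell from 4.64 ± 0.326 to 2.27 ± 0.349 CPM, with a log2 fold change of -1.02 ± 0.146 (SE) (Benjamini-Hochberg adjusted p = 1.25e-06, edgeR quasi-likelihood test). CA5B is uncertain because the related copy CA5BP1 overlaps it and could share its reads, although neither of the 2 rows named CA5BP1 was past the limit. Summed over 15 carbonic anhydrase genes, the level was 22.7, 23.2 and 22.1 CPM per kilobase in CP+siNC and 12.8, 12.8 and 12.9 CPM per kilobase in CP+siNAT10. CA2 and CA11 made up most of the sum in all 6 libraries, and the sum includes CA2, which was chosen on this contrast.

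Among the sodium-proton exchangers 7 of 12 other SLC9 genes were tested, 3 were higher and 4 lower, and none was past both limits. With library size scaling only, with DESeq2 and without CP+siNAT10 replicate 2, 3 were higher and 2 lower. SLC9A7 and SLC9A8, exchangers of the Golgi and other organelles, rose by log2 fold changes of 0.55 (SE 0.061) and 0.63 (SE 0.119). SLC9A5 fell, with a log2 fold change of -0.33 ± 0.072 (SE). Of the 4 other SLC4 genes only SLC4A5, a sodium-bicarbonate cotransporter, was tested, with 1.21 ± 0.398 CPM in CP+siNC and 1.61 ± 0.0509 CPM in CP+siNAT10. It was not past the limit, except without CP+siNC replicate 3, where its log2 fold change was 0.69 against 0.41 with all libraries, and without CP+siNC replicate 1 it was 0.25.

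Anion exchangers of the SLC26 family were either lower or not past the limit. Of 10 genes 4 were tested and 2 were lower, the sulfate transporter SLC26A2 with a log2 fold change of -0.50 (SE 0.0474) and SLC26A6 with -0.31 (SE 0.0623). SLC26A2 had the highest level of this list, at 4.29 CPM per kilobase in CP+siNC. Of 5 tested monocarboxylate transporters and chaperones, which carry lactate with a proton, 1 was higher and 2 were lower. The chaperone EMB rose by 0.81 (SE 0.182) on the log2 scale, and the lactate exporter SLC16A3 and SLC16A7 fell, with log2 fold changes of -0.23 and -0.34. BSG, the most abundant of them at 79.5 CPM per kilobase in CP+siNC, was not past the limit, except without CP+siNAT10 replicate 1 (-0.11).

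The V-ATPase pumps protons into organelles and, in some cells, across the plasma membrane. Of 20 tested subunit genes 2 were higher, 8 were lower and 10 were not past the limit. Among all genes tested 21.8% were higher and 22.3% lower. ATP6V1E2, an isoform of the E subunit, rose from 3.02 ± 0.184 to 6.32 ± 0.481 CPM (SD, n = 3 per group), and it was the gene past both limits in the upward direction. Its log2 fold change was 1.06 ± 0.125 (SE) (Benjamini-Hochberg adjusted p = 4.93e-08, edgeR quasi-likelihood test), and its groups did not overlap. ATP6V1G2, ATP6V1F and ATP6V1C1 fell, with log2 fold changes of -0.99, -0.70 and -0.45. ATP6V1G2 shares 293 exonic bases with the read-through gene ATP6V1G2-DDX39B, which was lower too, with a log2 fold change of -0.12.

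ATP6V1F needs a closer look at its counts. It had 7314, 7501 and 7182 counts in CP+siNC and 5363, 5073 and 5020 in CP+siNAT10. KCP, a gene on the opposite strand whose span encloses ATP6V1F, had 7233, 7392 and 7118 counts in CP+siNC and 5304, 5036 and 4957 in CP+siNAT10. The counts of this pair were nearly the same in each library, and their reads cannot be told apart. In GENCODE 29 they share 187 of the 789 exonic bases of ATP6V1F, so this pair is not among those compared by strand above. KCP was named after its values were seen. The level of ATP6V1F per kilobase, 486 CPM per kilobase in CP+siNC and the highest of the list, carries the same doubt.

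Of 5 tested Na,K-ATPase subunits, the pump that keeps the sodium gradient for these transporters, 1 was higher and 2 were lower. ATP1B1 fell, with a log2 fold change of -0.24 ± 0.0443 (SE). FXYD2, a regulator of the pump in the tubule, had 0.31, and its call was lost with DESeq2 (0.31) and without CP+siNC replicate 1 (0.28), CP+siNAT10 replicate 1 (0.29) or CP+siNAT10 replicate 3 (0.22).

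Of 15 tested scaffolds and regulators of the transporters 5 were higher and 2 lower past the adjusted p limit, which together is near the share of all genes tested (21.8% higher and 22.3% lower), and nothing is read from the direction of so few. The kinases WNK1 and STK39, which act on ion cotransporters, rose by 0.32 (SE 0.0338) and 0.53 (SE 0.113) on the log2 scale. AHCYL1, a protein that binds and activates SLC4A4, rose by 0.14 (SE 0.0332). EZR, the membrane linker ezrin and the most abundant of the list at 290.3 CPM per kilobase in CP+siNC, had a log2 fold change of 0.10 with groups that overlapped, and its call was lost with upper quartile scaling (0.097), with a replicate block (0.10), with DESeq2 (0.099) and without several single libraries (CP+siNC replicates 2 and 3 at 0.099 and 0.058, CP+siNAT10 replicates 2 and 3 at 0.11 and 0.067). Without CP+siNAT10 replicate 2, 4 genes of this list were past the limit in place of 7.

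All 3 tested pH sensors were lower, as were 22.3% of all genes tested, and nothing is read from so few. The proton-sensing receptor GPR132, the most abundant of the list at 5.71 CPM per kilobase in CP+siNC, had a log2 fold change of -0.31. The bicarbonate-stimulated adenylyl cyclase ADCY10 had -0.87 at about 1 CPM, and its call was lost with DESeq2 (-0.88) and without CP+siNC replicate 1 (-0.70), CP+siNAT10 replicate 1 (-0.84) or CP+siNAT10 replicate 3 (-0.82), while without CP+siNC replicate 2 it was past both limits (-1.02).

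Ammonia production from glutamine is the other way in which proximal tubule cells dispose of acid. Of 9 tested genes 2 were higher and 3 lower. The glutamine transporter SLC38A1 and glutamate dehydrogenase, GLUD1, fell, with log2 fold changes of -0.49 and -0.29. SLC1A5, a glutamine transporter and the most abundant of the list at 35.6 CPM per kilobase in CP+siNC, rose by 0.26 on the log2 scale.

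**Figure D4:**
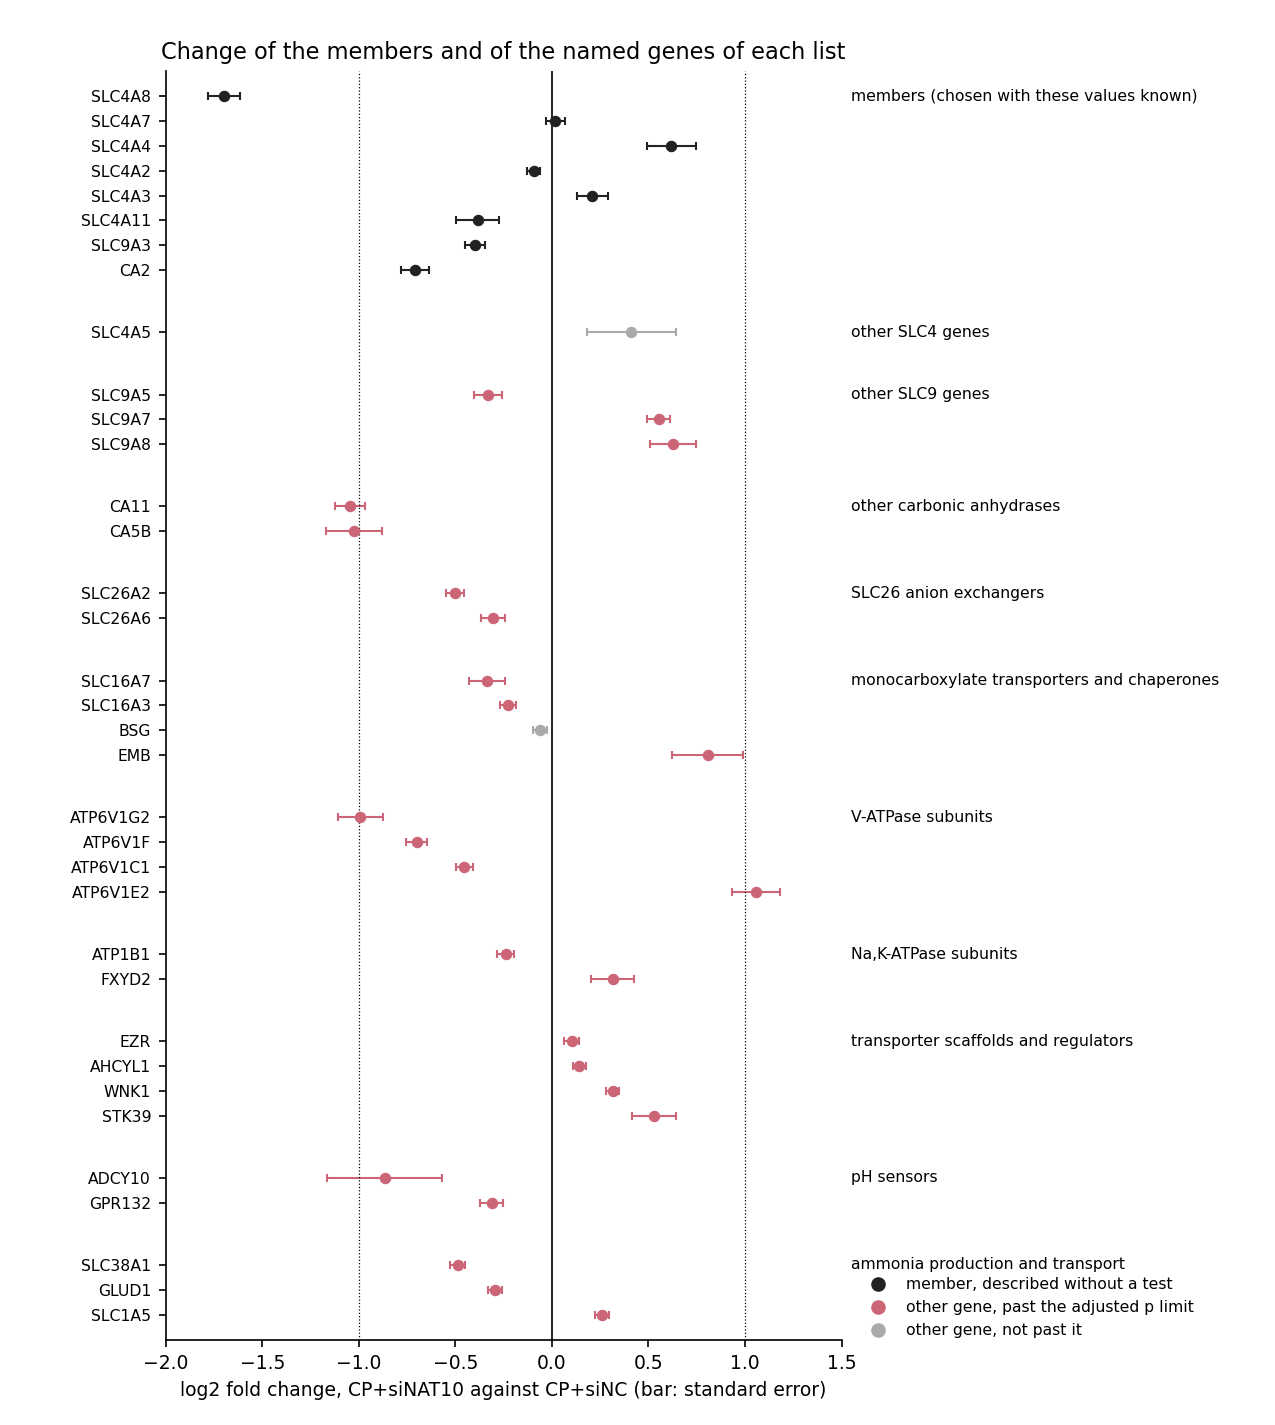
Log2 fold change of CP+siNAT10 against CP+siNC for the 8 tested members and for the named genes of each other list, with standard errors as bars and dotted lines at a log2 fold change of 1 in either direction. Members are drawn in black because they were chosen with these values known; SLC4A8 lies farthest to the left, and CA11, CA5B and ATP6V1E2 are the other genes drawn beyond the dotted lines.

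The 5 genes whose profile over the 6 libraries was most like that of SLC4A8 were CCNG1, IL23A, ADIPOR1, PNMA8A and IFIT2, out of 12303 other tested genes averaging 5 CPM or more. Likeness was the root mean square difference between log2 CPM profiles, each centred on its own mean. It was 0.0666 for CCNG1, 0.0729 for IL23A, 0.0864 for ADIPOR1, 0.124 for PNMA8A and 0.128 for IFIT2. CCNG1 encodes a cyclin, IL23A a cytokine subunit, ADIPOR1 an adiponectin receptor and IFIT2 an interferon-induced protein, and none of the 5 is an acid-base gene. All 5 were lower in CP+siNAT10, with log2 fold changes between -1.62 and -1.46. This follows from choosing them by their likeness to SLC4A8 over the same libraries, so nothing is read from it.

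Markers of other cell types were measured in the same libraries. Of 11 stromal, endothelial and immune markers 8 were low. The 3 tested (CD68, COL1A1 and PTPRC) were higher in CP+siNAT10, as were 21.8% of all genes tested. The summed level of the 11 markers was 219, 210 and 226 CPM in CP+siNC and 301, 281 and 281 CPM in CP+siNAT10. Nearly all of it was CD68, a lysosomal protein that epithelial cells also make. The endothelial markers KDR, PECAM1 and VWF and the fibroblast markers COL1A2 and DCN were near 0. PTPRC had group means under 1 CPM and its highest level, 1.33 CPM, in CP+siNAT10 replicate 2. Its log2 fold change was 0.96, or 0.46 without that library, and its call was lost there, with DESeq2 and when a CP+siNC library was left out. Of 10 markers of other nephron segments 8 were low, and AQP3 was lower with a log2 fold change of -0.98. Of the 9 tested proximal tubule markers 3 were higher and 3 lower, with PAX8 at 0.59, CDH6 at 0.47 and SLC5A2 at 0.31, and SLC3A1 at -0.99, KRT18 at -0.36 and GGT1 at -0.28, while KRT8 was not past the limit. Their part in the members' levels was not tested, and in these bulk libraries fewer cells of a kind and less RNA per cell cannot be told apart.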

How the data were processed

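Per the labels, stranded mRNA libraries of Cisplatin-treated HK-2 cells were sequenced, 3 per siRNA group. The submitters' processing notes name Trimmomatic 0.36, STAR 2.5.3a, featureCounts, Subread 1.5.1, edgeR 3.12.1 and GRCh38. The authors deposited raw gene counts with positions and gene lengths. The kit adds molecular identifiers meant for the removal of duplicates. Whether reads with one identifier were merged, and whether strand was used in counting, is not given in the sources used here. Counts of genes inside exons of another gene were therefore compared by strand, a check added after the results were seen. The analysis used edgeR 4.0.16 in R 4.3.3. Its filterByExpr (minimum count 10, minimum total 15) kept 19874 genes, TMM scaled the libraries, and groups were compared by the quasi-likelihood test without a replicate term, adjusted by Benjamini-Hochberg over all 19874. The limits were 0.05 for the adjusted p and, where both are named, 1 for the size of the log2 fold change. The standard error is the size of the log2 fold change over the root of its F statistic. CPM per kilobase uses the deposited length. With 3 against 3 libraries, an exact permutation test cannot go below 0.10. Replicate pairs gave a chi-square per gene of 1.73 to 2.54, more than counting error alone, so no library was a copy of another. In GENCODE 29, 95.3% of the tested genes were found by identifier. Exon overlaps and the longest 3′ UTR of each gene come from it. The members and lists were chosen with earlier results of these data known. Named were the members, NAT10, overlapping genes, the 5 genes most like SLC4A8 and, from each list, genes past both limits, up to 3 smallest p past the adjusted limit, and the highest level per kilobase. The other called proximal tubule markers were added afterwards. Some genes that this rule takes are not reported here. The alternatives were RLE, upper quartile and library size scaling, no filter, a minimum count of 30, a replicate block, DESeq2 1.42.0, glmTreat and leaving out each library. On counts simulated with the same dispersion for every gene, the fit gave median estimates close to the changes put in and called few unchanged genes. This checks the code and does not show how the fit does on the real libraries, where dispersion may differ between genes. Python 3.11.15 and matplotlib 3.10.9 drew the plots.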

Additional observations from a re-analysis of the deposited data

How the results depend on the processing

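Under the alternatives of scaling, filter, block, DESeq2 and leaving out libraries, SLC4A8, SLC4A4, SLC9A3, CA2 and NAT10 kept their direction and their side of the adjusted p limit. Leaving out single libraries gave -1.72 to -1.67 for SLC4A8, 0.55 to 0.68 for SLC4A4, -0.42 to -0.37 for SLC9A3, -0.78 to -0.67 for CA2, -0.85 to -0.80 for NAT10, -0.47 to -0.29 for SLC4A11, -0.12 to -0.068 for SLC4A2 and 0.16 to 0.27 for SLC4A3 on the log2 scale. SLC4A2 was not past the limit with library size scaling only (-0.057), no filter (-0.083) or DESeq2 (-0.097), and SLC4A3 was not past it with DESeq2 (0.21); the cause was not tested. Members past the limit numbered 4 to 7 without single libraries, other SLC4 genes 0 to 1, and scaffolds and regulators 4 to 7. Without a filter, where CA12 also enters, the median of the members was -0.37. Past both limits lay 464 genes, 711 with no filter, 256 with a minimum count of 30, which tests fewer genes, and 56 with glmTreat, which tests the fold change itself. CA11 ranged from -1.12 to -1.01, CA5B from -1.11 to -0.91 and ATP6V1E2 from 1.00 to 1.10, so CA5B and ATP6V1E2 were not past both limits under each alternative. SLC3A1, AQP3, ATP6V1G2, ADCY10 and PTPRC were past both limits without some single libraries, at up to -1.18, -1.19, -1.12, -1.02 and 1.21. Library size scaling only gave 5050 higher and 3786 lower genes against 4331 and 4440, left 2 of the other SLC9 genes lower in place of 4, and gave levels in CP+siNC of 0.351 for SLC4A4 and 5.07 CPM per kilobase for SLC9A3. In CP+siNAT10 the levels per kilobase were 0.291 for SLC4A8, 0.545 for SLC4A4, 17.9 for SLC4A2, 2.67 for SLC4A3, 3.92 for SLC9A3, 6.18 for CA2 and 1.17 for SLC4A11.

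Deviations of same-numbered libraries correlated at 0.00808, 0.0639 and -0.205, and those of differently numbered libraries at -0.217 to 0.198. With 3 libraries per group these values cannot decide whether the replicate numbers pair the samples. With the replicate block 4208 genes were higher and 4318 lower, and of the named genes the block changed the call of EZR only (0.10). Depth limits CA12, SLC4A5, ADCY10 and PTPRC, which rest on few counts.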
